A study of Macaca mulatta with 10 samples.

Results

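The loci described here are the annotated, non-protein-coding loci of a juvenile rhesus monkey testis transcriptome. A locus is a group of overlapping transcript models on 1 strand, and a locus was a member when the deposited table gave it a gene name and when none of its biotypes was protein coding. This rule found 2440 of the 26813 loci of the table, or 9.10%. Of the other loci, 16212 had a protein-coding part and 8161 had no name. By biotype, 1446 members were long noncoding RNA (lncRNA), 533 were pseudogenes and 396 were misc_RNA, a label for transcripts of no other class (127 of these 396 are transcribed pseudogenes in current RefSeq annotation). A further 44 members joined several of these types, 14 were immunoglobulin or T cell receptor segments, which encode protein although their label does not say so, 6 were labelled "other" and 1 was telomerase RNA. The 6 loci labelled "other" are all protein coding in current RefSeq annotation.

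The RNA came from the right testis of 10 wild type rhesus monkeys, each a separate animal with 1 library. A group of 3 received vehicle intravenously (TP07, TP09 and TP11, aged 24, 14 and 15 months), for a time that the labels do not give. Pulses of FSH together with LH were given for 48 h to 3 animals (TP08, TP10 and TP12, aged 22, 14 and 15 months) and for 96 h to 4 animals (TP15, TP16, TP17 and TP18, all aged 14 months). The series concerns the step at which undifferentiated spermatogonia commit to differentiation, and the comparisons ask which transcripts of the whole testis differ after gonadotropin. The libraries held between 21824233 and 30375928 counts.

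A lncRNA is transcribed and usually spliced like a messenger RNA but carries no long open reading frame. Many start next to a coding gene, run against it on the opposite strand, or lie inside its introns. The testis is known for transcribing an unusually wide range of lncRNAs and gene copies, mostly in the germ cells of the adult. A processed pseudogene is a spliced messenger RNA copied back into the genome, so its letters resemble the exons of its source, and reads of the source can be assigned to it. In the juvenile testis the Sertoli cells are immature, the germ cells are spermatogonia, and FSH and LH act on Sertoli and Leydig cells respectively.

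The label testis held by its markers. All 6 Sertoli markers were measured, with SOX9, AMH and WT1 among them, as were 5 of 6 germ cell markers and 4 of 5 Leydig markers, and none of the 3 epididymis markers was among the loci of the table. Leydig markers were higher than vehicle in 4 of 4 at both times. Germ cell markers were lower in 2 of 5 at 48 h (DAZL and GFRA1) and in 4 of 5 at 96 h (DDX4, DAZL, MAEL and GFRA1). Among Sertoli markers CLDN11 was higher at both times (log2 fold change 1.33 and 1.27) and SOX9 at 96 h, and the peritubular marker ACTA2 was higher at both (2.77 and 2.37). Macrophage and erythroid markers were called in neither comparison with vehicle. The part that shifts in cell makeup have in the results on noncoding loci was not tested, and in whole tissue fewer cells of a type and less RNA per cell cannot be told apart.

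The members were sparsely expressed. The mean level over the 10 libraries had a median of 2.45 CPM (a count relative to the scaled total of its library, by the TMM method), against 24.4 CPM for loci with a protein-coding part. Per kilobase of exon, the medians were 0.90 CPM for noncoding and 5.35 CPM for protein-coding loci. Of the 2440 members, 2175 had a mean above 1 CPM and 372 a mean above 10 CPM. The lncRNA models had a median of 3 exons, and 14.1% of them had a single exon, whereas 55.2% of the pseudogene and 66.9% of the misc_RNA loci had 1 exon. A LOC number was the only name of 2419 members, so they are described here by their place beside a known coding gene.

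Noncoding loci took a smaller share of the reads in the treated animals than in the vehicle animals. Of the counts in each library, noncoding loci took 2.54, 2.76 and 2.57% in the 3 vehicle animals, 1.99, 2.39 and 2.17% in the 3 animals at 48 h, and 2.5, 2.36, 2.46 and 2.2% in the 4 animals at 96 h. The vehicle animals lay above all 7 treated animals. The means were 2.62% ± 0.118 (SD, n = 3) for vehicle, 2.18% ± 0.200 (SD, n = 3) for 48 h and 2.38% ± 0.134 (SD, n = 4) for 96 h. An exact two-sided permutation test gave p = 0.1 for 48 h against vehicle, the smallest p that 3 against 3 animals allows, and p = 0.0571 for 96 h against vehicle, where the smallest is 0.0286. Over the 15 tests of this family (5 classes and 3 comparisons) both became 0.188 after Benjamini-Hochberg adjustment, so the difference in share is a direction that did not pass the test.

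By class, the lncRNA loci took 1.78% ± 0.0703 of the counts in vehicle, 1.44% ± 0.144 at 48 h and 1.59% ± 0.114 at 96 h, and the pseudogenes 0.283%, 0.218% and 0.241%. The misc_RNA loci held 0.425%, 0.427% and 0.438%, with overlapping groups. Loci without a name, which are not members, held 6.61% in vehicle, 5.28% at 48 h and 5.96% at 96 h, also with overlapping groups. For all noncoding loci, TP09 and TP10 had the highest share of their groups and TP15 and TP17 the 2 highest at 96 h, whereas the pseudogene share at 96 h was highest in TP16 (0.267%) and lowest in TP15 (0.229%).

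**Figure D1:**
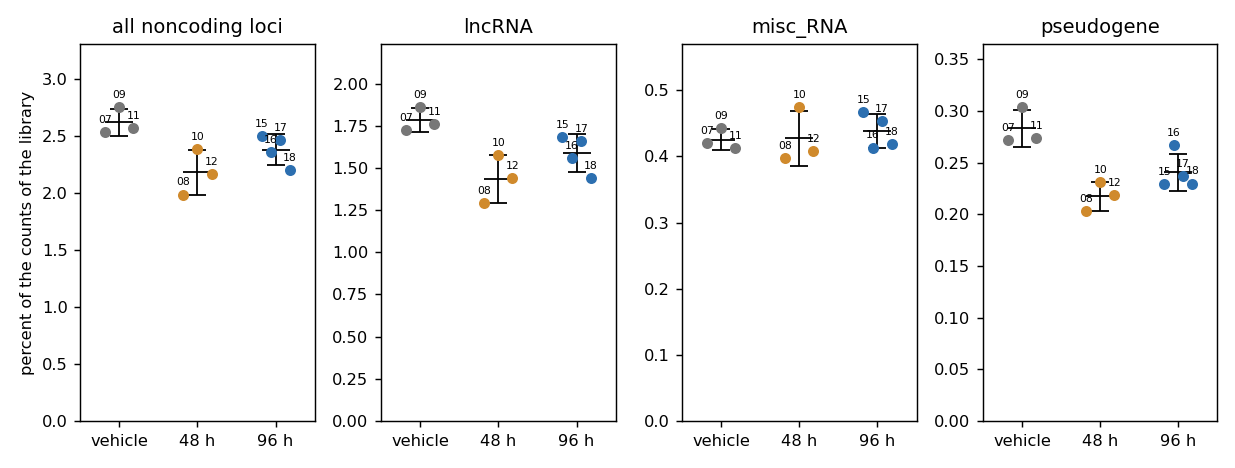
Percent of all counts of a library that fell in all noncoding loci, lncRNA, misc_RNA and pseudogene loci (vertical axes, from 0) in vehicle, 48 h and 96 h animals (points, labelled by the digits of the animal's name). Black bars are the group mean and SD. The vehicle animals sit highest for all noncoding loci, from 2.54 to 2.76%, and the groups overlap for misc_RNA.

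Locus by locus, 38 noncoding loci rose and 89 fell at 48 h against vehicle in edgeR's quasi-likelihood test at an adjusted p below 0.05. That is 1.56% and 3.65% of the members, beside 8.53% of all loci called higher and 3.67% called lower. The share that fell is thus near the background, and the share that rose is below it. At 96 h, 66 members rose and 208 fell, or 2.70% and 8.52%, beside 10.6% higher and 6.89% lower over all loci. The median log2 fold change over all members was -0.24 at 48 h and -0.17 at 96 h, against 0.06 and 0.06 for protein-coding loci and -0.07 and -0.01 over all loci. The 8161 loci without a name leaned lower too, with medians of -0.34 and -0.21. Of them 0.82% were called higher and 4.37% lower at 48 h, and 2.05% and 6.31% at 96 h.

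The lncRNA and pseudogene loci had more lower than higher calls, and the misc_RNA loci the reverse. The difference between classes was not tested. Of 1446 lncRNA loci, 14 rose and 68 fell at 48 h (median log2 fold change -0.27), and 33 rose and 150 fell at 96 h (median -0.27). That is 0.97% and 4.70% at 48 h, and 2.28% and 10.4% at 96 h. Over all loci, 8.53% were called higher and 3.67% lower at 48 h, and 10.6% and 6.89% at 96 h. Of 533 pseudogene loci, 5 rose and 13 fell at 48 h (0.94% and 2.44%), and 9 rose and 38 fell at 96 h (1.69% and 7.13%). The share of pseudogene loci that fell was thus below that over all loci at 48 h and near it at 96 h. The share that rose was below it at both times. Of 396 misc_RNA loci, 19 rose and 6 fell at 48 h (4.80% and 1.52%) and 21 rose and 11 fell at 96 h (5.30% and 2.78%). All of these shares were below those over all loci. The median log2 fold changes of misc_RNA loci were 0.07 and 0.08, close to those of the protein-coding loci. The 44 loci of mixed noncoding types had 0 higher and 2 lower (4.55%) at 48 h, and 1 higher (2.27%) and 9 lower (20.5%) at 96 h. None of the 14 immune receptor segments was called, and their log2 fold changes ran from -2.03 to 0.72 at 48 h.

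**Figure D2:**
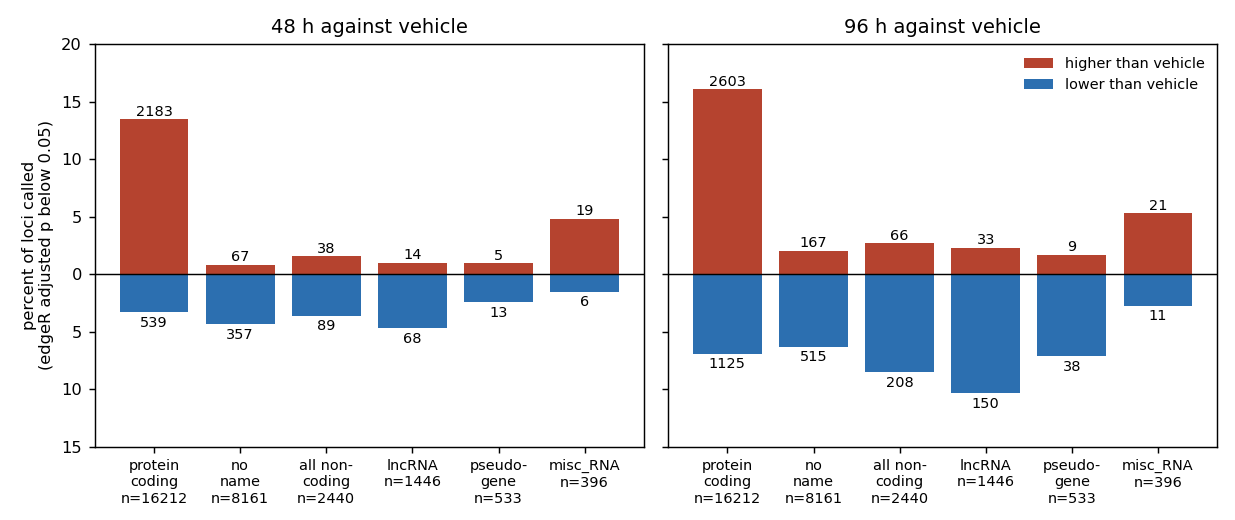
Percent of loci called higher (upward, red) or lower (downward, blue) than vehicle at 48 h (left) and 96 h (right), for protein-coding loci, loci without a name, all noncoding loci and the 3 large noncoding classes. Numbers on the bars are counts of loci. Protein-coding and misc_RNA loci have longer upward bars, while lncRNA loci have 150 lower against 33 higher at 96 h.

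The lean was also read at matched levels, without a test. Among loci with a mean of 2 to 5 CPM, 10 noncoding loci rose and 18 fell at 48 h out of 742, and 56 protein-coding loci rose and 41 fell out of 1806. At 96 h the same level held 16 higher and 65 lower noncoding loci, and 92 higher and 194 lower protein-coding loci. Above 20 CPM, 12 of 201 noncoding loci rose and 25 fell at 48 h, whereas 1750 of 8882 protein-coding loci rose and 364 fell. At 2 to 5 CPM, protein-coding loci thus had more lower than higher calls at 96 h, as noncoding loci did, and above 20 CPM they had more higher than lower calls at both times.

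The calls at the 2 times were compared next. Altogether 258 loci were lower at 48 h, at 96 h or at both, and 39 of these were lower at both. Another 79 were higher at 1 or both times, and 25 of these at both. No member was called in opposite directions at the 2 times, and 2103 were called in no comparison. The comparisons at 48 h and 96 h share the vehicle animals. The same overlaps over all loci are not given here, so these counts are not read as a trait of the members.

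These counts depend on scaling and on single animals. With upper-quartile scaling the median change over the whole table, in log2 units, was -0.20 at 48 h, not -0.07, and -0.16 at 96 h, not -0.01. It gave 20 higher and 154 lower members at 48 h and 42 and 358 at 96 h, so the split moved with the scaling. Without both animals over 20 months (TP07 and TP08) the counts fell to 12 higher and 20 lower at 48 h and to 30 and 49 at 96 h. All 96 h animals were 14 months old, so age and treatment cannot be fully told apart.

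Among the named lncRNAs that fell, the most reduced at 48 h was a locus that joins LOC106996876, LOC106996877 and LOC106996880 (rheMac8 chromosome 2, 77045623 to 77388850, minus strand). It starts inside the first part of ADAMTS9, a secreted metalloprotease of the extracellular matrix, and runs away from it on the opposite strand. Its level was 29.9, 55.1 and 37.6 CPM in vehicle, 3.04, 6.21 and 5.76 CPM at 48 h, and 11.8, 5.28, 10.4 and 16.3 CPM at 96 h. All 7 treated animals lay below all 3 vehicle animals. On the log2 scale the change from vehicle was -3.03 at 48 h with a standard error (SE) of 0.42, and -1.90 ± 0.37 at 96 h (edgeR adjusted p = 0.00219 and 0.00801). Values after ± beside a log2 fold change are SE throughout.

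ADAMTS9 itself went the other way. It stood at 16, 25.0 and 22.6 CPM in vehicle, 65.4, 70.8 and 78.0 CPM at 48 h and between 61.8 and 73.8 CPM at 96 h, a log2 fold change of 1.75 ± 0.15 and 1.70 ± 0.15. The ranges of the vehicle and treated animals did not overlap for either locus of the pair. The rule for named loci admitted the largest changes only where the groups did not overlap. Non-overlap therefore adds no support for such loci, above or below. Over all loci, 36.1% did not overlap at 48 h against vehicle and 30.7% at 96 h, and of the members 28.4% and 25.1%. The labels name a library kit that marks strand, but whether the counting used strand is not given in the sources used here. Reads from loci that overlap on opposite strands therefore cannot be told apart with certainty. The 2 loci of this pair overlap between bases 77385671 and 77388850.

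LOC106997499 (chromosome 3, 87995809 to 88026291, minus strand) lies within MACC1, a regulator of growth factor signalling, on the other strand. Its level was 20.7, 9.02 and 16.7 CPM in vehicle, 2.77, 1.08 and 4.43 CPM at 48 h, and 0.968, 2.32, 1.77 and 1.37 CPM at 96 h, with no overlap between vehicle and treated animals. The log2 fold change was -2.48 ± 0.49 at 48 h (edgeR adjusted p = 0.00964) and -3.26 ± 0.46 at 96 h (edgeR adjusted p = 0.00169). MACC1 was not called, with log2 fold changes of -0.64 and -0.59. Without TP07 and TP08 the call at 48 h was lost (adjusted p = 0.104).

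LOC106993271 (chromosome 14) fell as well, by 2.58 on the log2 scale at 48 h, but its vehicle animals spread widely, at 5.98, 3.71 and 16.3 CPM.

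Of the lncRNAs that rose, LOC700575 (chromosome 13, 18921934 to 18996215, minus strand) had the largest log2 fold change at 96 h among those named. It lies inside the NT5C1B locus, which encodes a cytosolic 5'-nucleotidase found mainly in testis, on the opposite strand. That coding locus also carries the name LOC700575, so the pair is not cleanly 2 genes. The animals had 0.826, 1.36 and 1.58 CPM in vehicle, 2.80, 3.90 and 4.30 CPM at 48 h, and 15.4, 9.55, 15.4 and 11.1 CPM at 96 h, so the 3 groups did not overlap. The log2 fold change was 1.54 ± 0.30 at 48 h (edgeR adjusted p = 0.0082) and 3.35 ± 0.30 at 96 h (edgeR adjusted p = 0.000182). The NT5C1B locus fell, by 0.83 at 48 h and by 0.53 at 96 h on the log2 scale.

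LOC107000366 (chromosome 10, 14089577 to 14110785, minus strand) was the lncRNA with the largest rise at 48 h among those named. CEBPB, a transcription factor of the C/EBP family, is the nearest coding gene, 98255 bases away. The locus had 0.462, 0.838 and 0.678 CPM in vehicle, 3.07, 2.24 and 2.88 CPM at 48 h and 2.13 to 2.51 CPM at 96 h. Its log2 fold change was 2.05 ± 0.27 and then 1.77 ± 0.26 (edgeR adjusted p = 0.00126 and 0.00163). CEBPB rose at 96 h (log2 fold change 0.64 ± 0.17) and did not pass the test at 48 h (0.53).

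LOC106994033 (chromosome 16, 44677076 to 44681255), opposite FBXO47, a germ cell F-box gene, rose as well. Its level was 1.65, 0.838 and 1.13 CPM in vehicle, 4.72, 2.71 and 2.69 CPM at 48 h and 4.25 to 5.95 CPM at 96 h. The log2 fold change was 1.47 ± 0.32 at 48 h and 1.95 ± 0.31 at 96 h, and FBXO47 was not called (-0.40 and -0.63).

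**Figure D3:**
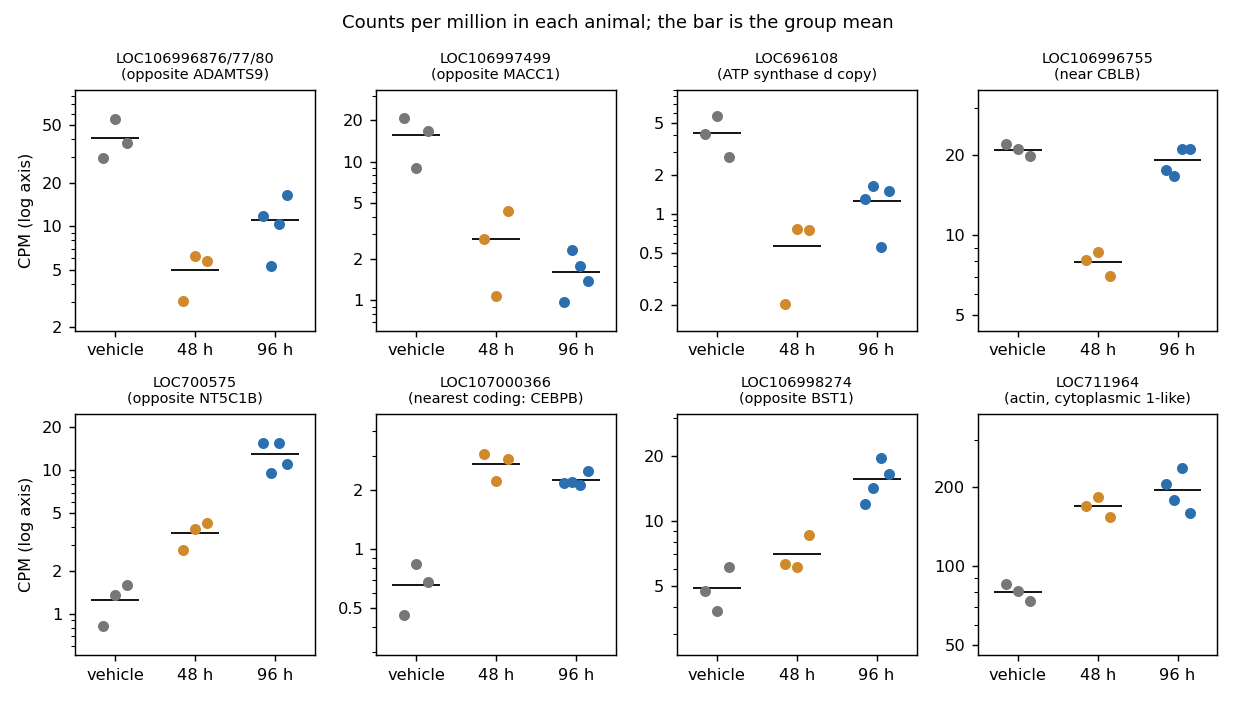
Level in CPM (log axis) of 8 noncoding loci in each animal (points) of the vehicle, 48 h and 96 h groups, with the group mean as a bar. The top row holds loci that fell: vehicle lies above both treated groups in the first 3 panels, and LOC106996755 is low at 48 h only, at 7.02 to 8.66 CPM. The bottom row holds loci that rose, with LOC700575 at 9.55 to 15.4 CPM at 96 h.

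Between 96 h and 48 h, 6 members differed in edgeR's quasi-likelihood test, all higher at 96 h, where DESeq2 called 73 higher and edgeR's exactTest 28. This stands beside 0.817% of all loci called higher and 0.25% called lower. No member was lower at 96 h than at 48 h in edgeR's quasi-likelihood test, where 126 had an unadjusted p below 0.05 in that direction, while DESeq2 called 20 and edgeR's exactTest 9. LOC106996755 (chromosome 2, 26864559 to 27040601, plus strand, near CBLB, a ubiquitin ligase gene) was a transient case. It had 22.0, 21.1 and 19.8 CPM in vehicle, 8.09, 8.66 and 7.02 CPM at 48 h, and 17.6, 16.7, 21 and 21.1 CPM at 96 h. Its log2 fold change was -1.41 ± 0.14 at 48 h against vehicle and 1.27 ± 0.14 at 96 h against 48 h (edgeR adjusted p = 0.00931), and 96 h against vehicle was not called (-0.14). LOC106995929, on an unplaced scaffold, showed a smaller dip, from 50.2 to 57.1 CPM in vehicle to 39.9 to 43.4 CPM at 48 h and 51.8 to 59.3 CPM at 96 h.

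The other 4 were called higher than vehicle at 96 h, and LOC700575 above is one of them. LOC106998274 (chromosome 5, 14958793 to 14973647, minus strand) abuts the start of a locus on the other strand that joins BST1, an ADP-ribosyl cyclase gene, and FAM200B, and that was not called. It had 4.76, 3.83 and 6.14 CPM in vehicle, 6.34, 6.10 and 8.61 CPM at 48 h, and 12, 14.3, 19.6 and 16.5 CPM at 96 h. LOC106998536, described as a copy of shisa-5 (chromosome 1, 50535358 to 50571620), went from 3.7 to 6.43 CPM in vehicle and 4.96 to 7.54 CPM at 48 h to 19.4 to 23.1 CPM at 96 h. It ends 1662 bases before C1H1orf185 on the same strand, and that locus rose by a like amount: the log2 fold changes at 96 h against vehicle were 2.2 ± 0.23 and 2.27 ± 0.35. SHISA5, the coding gene that the copy is named after, was not called (0.20). LOC695736, a pseudogene inside GAS2L3, a cytoskeletal linker gene of dividing cells, had 0.462 to 0.639 CPM in vehicle, 0.577 to 0.971 CPM at 48 h and 1.65 to 2.17 CPM at 96 h, and GAS2L3 rose with it (log2 fold change 1.84 ± 0.28 against 1.07 ± 0.13 at 96 h). Without TP08 of the 48 h group no member was called between the times, and without TP10 or without TP17 just 1, though the 6 log2 fold changes stayed positive in all fits.

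The position of a noncoding locus relative to the nearest coding locus went with how alike the 2 moved. Where they overlapped on the same strand (452 loci, 72.1% of them with a single exon), the log2 fold changes had a Pearson correlation of 0.60 at 48 h and 0.63 at 96 h across loci. For loci head to head within 5000 bases (219) it was 0.38 and 0.35, for other loci within 50000 bases (598) 0.28 and 0.28, for overlap on opposite strands (453) 0.09 and 0.06, and for loci over 50000 bases apart (555) 0.13 and 0.12. These correlations are descriptions across loci that share libraries and scaling, and several loci share 1 coding neighbour. On the same strand, reads of unspliced coding transcripts and of the noncoding locus cannot be told apart.

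Among pairs in which both loci were called, all 8 on the same strand moved the same way at 48 h and all 14 at 96 h. On opposite strands, 3 of 5 pairs moved the same way at 48 h and 13 of 19 at 96 h. Head to head, 4 of 5 and 5 of 6 pairs did. These pairs are not independent: the 8 same-strand pairs at 48 h lie in ROBO1, PRKG1 and ROBO2 alone, and at 96 h ROBO1 and PCDH11X hold several. The same-strand loci as a group also shifted with time: their median log2 fold change was -0.30 at 48 h and 0.06 at 96 h against vehicle, and 0.36 at 96 h against 48 h. The medians of opposite-strand loci were -0.15, -0.20 and -0.04. This is a description, and 1 of the 452 was called higher at 96 h than at 48 h.

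**Figure D4:**
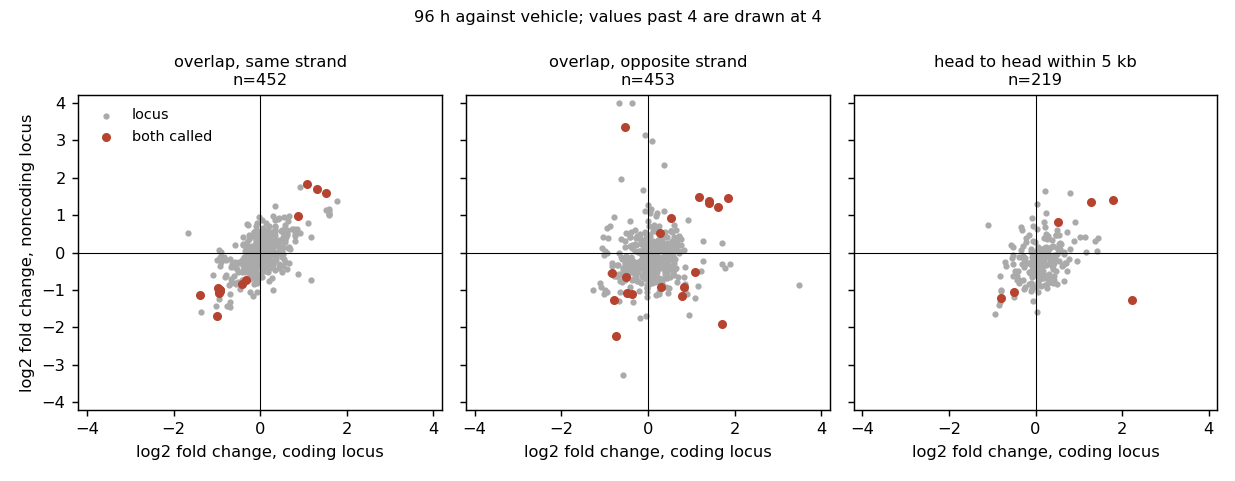
Log2 fold change at 96 h against vehicle of each noncoding locus (vertical axis) and its coding neighbour (horizontal axis), for 452 same-strand overlaps, 453 opposite-strand overlaps and 219 head-to-head pairs. Red points are pairs in which both were called. Points follow the diagonal on the same strand (correlation 0.63) and not on opposite strands (0.06), and 2 opposite-strand loci past 4 are drawn at 4.

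ROBO1, a receptor for Slit guidance proteins, held 3 such loci, all named LOC106995947 (chromosome 2, between 3930869 and 3960767, minus strand). The largest had 118, 199 and 127 CPM in vehicle, 33.2, 60 and 32.5 CPM at 48 h and 80.4, 53.9, 83.0 and 76.1 CPM at 96 h. The 3 log2 fold changes at 48 h were -1.82 ± 0.29, -1.92 ± 0.29 and -1.88 ± 0.34, and ROBO1 itself gave -1.65 ± 0.25. At 96 h they were -1.01, -0.99 and -1.03, beside -0.92 for ROBO1. LOC107000208, a ras suppressor protein 1 copy inside PRKG1, the gene of a cGMP-dependent kinase, went from 149, 187 and 151 CPM to 46.9, 92.2 and 56.1 CPM at 48 h (-1.32 ± 0.29), and PRKG1 fell by 1.08 on the log2 scale. The 3 ROBO1 loci are read as 1 case, not as 3.

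A few members lay close to a coding locus on the same strand without overlapping it and had fold changes near those of that locus. They are grouped here for that likeness, and not every close member showed it. LOC106999081 beside SNURF, given below, is a case that differed. LOC696108, an ATP synthase subunit d copy 331 bases from LOC100424819 on chromosome 15, had 4.13, 5.63 and 2.75 CPM in vehicle and 0.202, 0.758 and 0.744 CPM at 48 h. Its log2 fold change was -2.86 ± 0.50 and that of LOC100424819 was -2.38 ± 0.49. LOC100429226, a proteasome subunit copy, begins 80 bases after PRPS2, the gene of a phosphoribosyl pyrophosphate synthetase, on chromosome X. It rose at 96 h (1.64 ± 0.49, with 0.198 to 0.639 CPM in vehicle and 0.726 to 2.5 CPM at 96 h), as PRPS2 did (2.21 ± 0.27). LOC106998536 beside C1H1orf185, above, is a like case. The call of LOC100429226 was lost under 12 of 17 alternatives.

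On opposite strands, FAM111B with LOC106993235 and TMSB15B with LOC100423328 were among the pairs in which both rose. LOC106993235 (chromosome 14, 14917680 to 14920574) went from 1.06, 1.08 and 1.65 CPM in vehicle to 3.37, 4.98 and 3.33 CPM at 48 h and 3.10 to 4.45 CPM at 96 h. Its log2 fold change was 1.62 ± 0.28 and 1.47 ± 0.27, beside 1.54 ± 0.23 and 1.84 ± 0.22 for the locus of FAM111B, a protease gene linked to DNA replication. That coding locus also carries the name LOC106993235, so the pair is not cleanly 2 genes. LOC106993618 opposite PHF19, a Polycomb accessory gene, was a pair that moved apart. It had 54.5, 56.7 and 52.6 CPM in vehicle, 39.0, 39.7 and 43.4 CPM at 48 h and 33.9 to 43.8 CPM at 96 h (-0.51 ± 0.10 at 96 h), while PHF19 rose (1.09 ± 0.16).

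Other pairs with both loci called at 96 h were chosen for mention after their values were seen. The noncoding locus fell and the coding gene rose for LOC107000117 beside GDF10, a TGF-beta family ligand (-1.27 ± 0.27 and 2.22), for LOC100423229 opposite FSTL1 (-1.15 ± 0.25 and 0.80), for LOC106998802 opposite MAP1B (-0.93 ± 0.27 and 0.83) and for LOC106997119 opposite DNAJC13 (-0.91 ± 0.28 and 0.30). Both rose for LOC107001045 head to head with CIT, a cytokinesis kinase gene (1.35 ± 0.28 and 1.28), for LOC106998523 opposite HHIP, an inhibitor of Hedgehog ligands (1.22 ± 0.27 and 1.63), and for LOC106998581 and LOC106998582 opposite HMGB2, a chromatin protein gene (1.31 ± 0.31 and 1.38 ± 0.36, beside 1.42). Both fell in further pairs, such as LOC106997514 opposite AHR (-1.11 ± 0.27 and -0.36) and LOC708880 head to head with NR3C2 (-1.22 ± 0.29 and -0.80). At 48 h LOC106993166, head to head with the sterol reductase gene DHCR7, rose from 0.661, 0.439 and 0.485 CPM to 1.25, 1.05 and 1.13 CPM (1.10 ± 0.30), and DHCR7 rose by 0.84.

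Several copies of coding genes rose where their sources rose. LOC711964, described as an actin copy (chromosome 1, 34673552 to 34675273), had 85.6, 80.5 and 73.7 CPM in vehicle, 168, 183 and 154 CPM at 48 h and 205, 177, 235 and 159 CPM at 96 h. Its log2 fold change was 1.07 ± 0.14 at 48 h and 1.28 ± 0.13 at 96 h (edgeR adjusted p = 0.00118 and 0.000288), and ACTB, the cytoplasmic actin gene, gave 1.25 ± 0.18 and 1.00 ± 0.17. All treated animals lay above all vehicle animals. Current RefSeq labels LOC711964 protein coding. The GAPDH copy LOC701866 (chromosome 12) went from 19.3, 11 and 9.27 CPM to 35, 31.9 and 27.2 CPM at 48 h (1.25 ± 0.25), and GAPDH, a glycolytic enzyme gene, rose by 1.18.

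The same held for 2 further copies looked up after their values were seen. LOC703057, a tropomyosin alpha-4 copy, rose by 0.89 ± 0.14 at 48 h beside 0.87 ± 0.12 for TPM4, and LOC100430352, a copy of the Y-box protein gene YBX1, by 1.08 ± 0.26 beside 0.87 ± 0.11. Other copies did not move with their source. LOC100427655, an EEF1A1 copy, fell by 1.02 on the log2 scale at 96 h while EEF1A1 did not pass the test (0.50). That call was lost under 12 of 18 alternatives. Both LOC703251 loci, described as RPL7 copies, fell at 48 h (-1.08 and -0.94) while RPL7 did not pass it (0.30). Their calls were lost under 7 and 6 of 18 alternatives. The second of these loci is a model of 1 exon with 65337 bases, so its counts need not come from the copy alone. LOC723069, a copy of the mitochondrial enzyme gene SDHA, fell from 28.2 to 32.8 CPM in vehicle to 16.9 to 21 CPM at 48 h (-0.64 ± 0.13), and SDHA did not pass the test (0.23). Reads from a source gene and from a near-identical copy cannot be told apart in these counts, so the levels of all such copies are uncertain.

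Copies of ribosomal protein genes were compared with their sources in the same way. There were 137 such loci, and the coding gene was found for 125 of them (91.2%), from 54 distinct genes. At 48 h, 2 loci rose and 3 fell (1.46% and 2.19%, beside 8.53% and 3.67% over all loci), and at 96 h 3 rose and 1 fell (2.19% and 0.73%, beside 10.6% and 6.89%). The middle 80% of log2 fold changes at 48 h ran from -0.62 to 0.63 among the loci and from -0.11 to 0.26 among the coding genes. Across the 125 loci the fold changes of copy and source had a correlation of -0.05 at 48 h and -0.02 at 96 h. The median copy held 0.475% of the CPM of its source.

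The largest fold changes in this family came from copies of RPL6 and did not divide by group. LOC696151 (chromosome 9, 65426049 to 65426981) had 1, 1 and 3 counts in the vehicle animals, 6, 87 and 80 counts at 48 h, and 3, 101, 69 and 123 counts at 96 h. Its fitted log2 fold change of 4.99 ± 1.41 at 48 h (edgeR adjusted p = 0.0479) rests on vehicle counts at or below 3 and is no bound, and under 10 of 17 alternatives that call was lost. LOC100429408 (chromosome 3) had 205, 174 and 253 counts in vehicle, 205, 725 and 775 counts at 48 h and 201, 826, 513 and 1077 counts at 96 h. It rose at 96 h (1.89 ± 0.54, edgeR adjusted p = 0.0397, a call lost under 11 of 18 alternatives). In both, TP10, TP12, TP16, TP17 and TP18 were high, and TP08 and TP15 were near the vehicle animals.

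LOC702932 and LOC702116, on chromosomes 11 and 5, repeated this order. The first had 1.94 to 5.09 CPM in those 5 animals and 0.00 to 0.291 CPM in the other 5, the second 2.04 to 3.92 CPM and 0.452 to 0.878 CPM. Neither was called against vehicle. The coding gene RPL6 was between 397 and 790 CPM in all animals and was not called. The 4 copies may share reads, so they count as 1 observation. The other 3 of the 7 copies lacked this order: LOC710877 rose at 96 h (0.95 ± 0.26, edgeR adjusted p = 0.031) with TP16 highest, and LOC700701 and LOC693287 were not called.

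**Figure D5:**
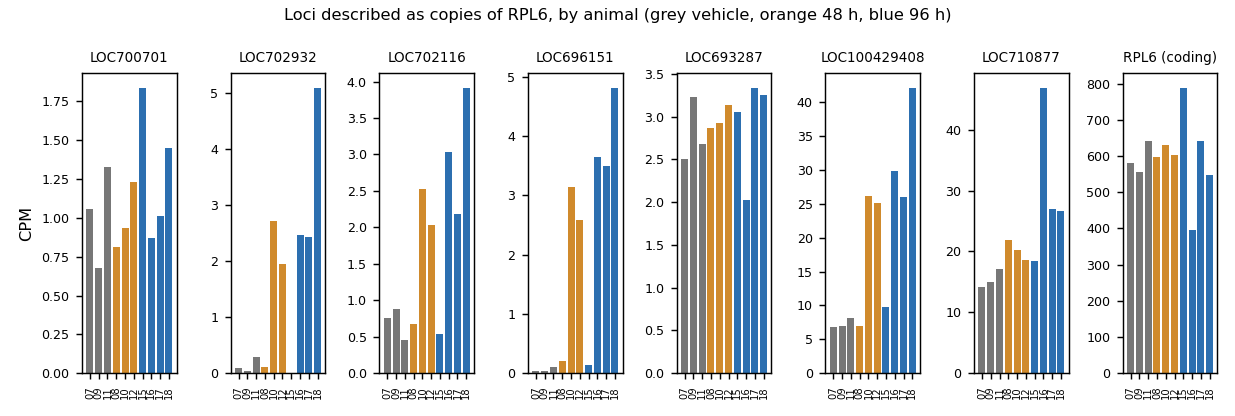
CPM (vertical axes, from 0, each panel its own scale) in each animal (bars; grey vehicle, orange 48 h, blue 96 h) of 7 noncoding loci described as RPL6 copies and of the coding gene RPL6. TP10, TP12, TP16, TP17 and TP18 are high in LOC702932, LOC702116, LOC696151 and LOC100429408, while TP08 and TP15 are low with the vehicle animals.

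Current RefSeq annotation, on a telomere-to-telomere assembly of the rhesus genome, gives some members another class. Of the 2440 loci, 1302 (53.4%) were found there by identifier or name, which is too few for a check over all members, and the values below hold for the matched loci. Of these, 183 are now protein coding, 514 are lncRNA and 218 are transcribed pseudogenes. The 183 include LOC711964, LOC703057 and LOC723069, described above as copies of coding genes, and LOC106996755, the transient case above. Over all loci, 8.53% were called higher and 3.67% lower at 48 h, and 10.6% and 6.89% at 96 h. The 183 loci now coding had 12 higher and 7 lower at 48 h and 15 higher and 25 lower at 96 h. Those 12 are among the 38 members called higher at 48 h. The 514 loci now lncRNA had 4 higher and 24 lower at 48 h and 13 and 49 at 96 h. The 218 transcribed pseudogenes had 10 higher and 2 lower at 48 h and 10 and 7 at 96 h.

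Some loci with a current coding label encode small proteins, and the 4 given here were picked after their values were seen. Others of this kind, such as NOP10 (0.50 at 48 h), CEBPZOS (-0.27) and NUPR2 (-1.05), were not called. LOC700646, now SMIM26, a small mitochondrial membrane protein gene, had 19.5, 21.1 and 23.3 CPM in vehicle, 34.9, 30.2 and 30.9 CPM at 48 h and 28.1 to 35.4 CPM at 96 h (log2 fold change 0.59 ± 0.12 and 0.61 ± 0.11). The locus now named NBDY, a P-body microprotein gene, rose by 0.59 ± 0.12 at 48 h and 0.47 ± 0.11 at 96 h, and that now named MTLN, the gene of the mitochondrial microprotein mitoregulin, by 0.53 ± 0.12 and 0.37 ± 0.12. LOC106998836, now COX7C, a subunit of cytochrome c oxidase, had 114, 115 and 136 CPM in vehicle and 166, 162 and 171 CPM at 48 h (0.45 ± 0.11). At 96 h COX7C did not pass the test (0.27).

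Well-known noncoding RNAs could be looked up by name only, and a member with a LOC number alone may be one of them. Of 29 snoRNA host genes and 23 germ line and gonad noncoding RNAs listed, 0 were found by name, and of 15 imprinted RNAs, 15 nuclear RNAs, 26 structural RNAs and 21 microRNA hosts 1 each. The imprinted RNA H19 was the most abundant member per kilobase of exon, at 828 CPM. It had 876, 1638 and 1195 CPM in vehicle, 1014, 2505 and 1533 CPM at 48 h, and 3809, 1113, 3545 and 1803 CPM at 96 h. The groups overlapped and H19 was not called (log2 fold change 1.05 ± 0.46 at 96 h, edgeR adjusted p = 0.138).

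TERC, the telomerase RNA, followed per kilobase at 530 CPM, though it was not called. Its animals had 128, 243 and 229 CPM in vehicle, 200, 186 and 187 CPM at 48 h and 321, 233, 351 and 327 CPM at 96 h (0.62 ± 0.21 at 96 h, edgeR adjusted p = 0.0632). LOC107000647, which current RefSeq names TUG1 and labels protein coding, although TUG1 is best known as a lncRNA, held between 215 and 324 CPM in all animals and was not called. MIR155HG, the host transcript of microRNA 155, went from 3.37, 3.71 and 2.81 CPM in vehicle to 2.12, 2.02 and 2.33 CPM at 48 h and 1.5, 2.28, 2.18 and 1.45 CPM at 96 h, and fell by 0.83 on the log2 scale at 96 h (edgeR adjusted p = 0.0314). That call was lost under 8 of 18 alternatives. The coding locus it overlaps on the same strand, which was not called, carries the names MIR155HG and MRPL39.

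Of the most abundant lncRNAs, 2 were called lower at 48 h, and neither was called between 96 h and 48 h. LOC106999563 (chromosome 7, 157804228 to 157810919) starts 60 bases from GLRX5, a gene of iron-sulfur cluster assembly, and runs away from it. It had 512, 417 and 513 CPM in vehicle, 345, 356 and 398 CPM at 48 h and 360 to 452 CPM at 96 h (-0.39 ± 0.12 at 48 h, edgeR adjusted p = 0.0493), while GLRX5 rose (0.54 ± 0.10). The call of LOC106999563 was lost under 12 of 18 alternatives. LOC106999081, a model of up to 51 exons that begins 143 bases after the imprinted gene SNURF on chromosome 7, had 502, 493 and 434 CPM in vehicle and 326, 357 and 310 CPM at 48 h (-0.53 ± 0.14, edgeR adjusted p = 0.0371, a call lost under 7 of 18 alternatives). SNURF was not called at 48 h (log2 fold change 0.05). At 96 h LOC106999563 and LOC106999081 overlapped vehicle and were not called.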

How the data were processed

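The loci, their names and biotypes and the raw counts per locus were taken from the deposited table, which per the submitters' processing notes was made with HTSeq 0.6.1p1, Cufflinks 2.2.1, TopHat2 2.1.1, cutadapt 1.9.1 and Bowtie2 2.2.8 on rheMac8. The authors' deposited CPM columns were not used, though the symbols that the authors assigned in a second table were. The authors' log2 fold changes and adjusted p-values were used only for the counts below, and exon positions came from the deposited transcript models. Whether the counting used strand is not given in the sources used here. The lowest mean level of a member was 0.484 CPM. In the authors' deposited table, 135, 254 and 33 members had an adjusted p below 0.05 at 48 h, at 96 h and between the times.

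Counts of all 10 libraries and all 26813 loci were fitted with edgeR 4.0.16 (TMM scaling, quasi-likelihood test, group means, R 4.3.3), with Benjamini-Hochberg adjustment over all loci at 0.05. The code was tested on simulated data. A fold change compares the first group named with the second, and CPM here are scaled by TMM. Shares were compared with exact permutation tests over animals. The members and lists were chosen with earlier results of these data known. Named loci were, per class of at least 20 members, the 4 called loci with the largest rise and the 4 with the largest fall whose groups did not overlap (mean of at least 1 CPM), the 5 most abundant, the smaller classes, the listed RNAs and the 5 called pairs with the smallest p. Not all of them are printed. Alternatives were RLE and upper-quartile scaling, a stricter count filter (at least 10 counts in every library of at least 1 group and a mean of 2 CPM, which kept 18942 loci), DESeq2 1.42.0, edgeR's exactTest, fits of 2 groups, age as a covariate, both animals over 20 months left out, and each animal left out. Neighbouring loci were called head to head within 5000 bases, near within 50000 bases and further beyond. No sequence was used here. A locus that the rule for named loci selects is not reported here.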

Additional observations from a re-analysis of the deposited data

Results flagged for a closer look

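For the 4 animals at 96 h, 108 groups of values were examined, taken from shares of counts and from named loci. In 6 of these groups, all of them loci, 1 animal stood apart from the other 3. This was judged by its gap to the nearest animal divided by the range of the group. Chance flags about 1 in 20 such groups, so 6 of 108 is near that rate. The ratio was 0.847 for SGMS1 (TP17, 83.4 CPM against 68.1 to 70.4 CPM), 0.882 for LOC106993235 (TP17, 4.45 CPM), 0.942 for LOC106994033 (TP15, 5.95 CPM) and 0.908 for LOC100423328 (TP16, 2.71 CPM). It was 0.834 for LOC715736, an HSP 90-alpha copy (TP18, 207 CPM against 119 to 134 CPM), and 0.943 for LOC711303, an immunoglobulin gamma chain segment (TP18, 1.76 CPM against 0.354 to 0.434 CPM). SGMS1, labelled "other" in the deposited data, is protein coding in current RefSeq annotation.

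The effect of treatment differed between 96 h and 48 h by edgeR's quasi-likelihood test of that difference in 6 loci. The log2 difference was 1.70 for LOC106998536, 1.27 for LOC106996755, 1.15 for LOC106998274, 1.48 for LOC695736, 1.81 for LOC700575 and 0.44 for LOC106995929. The highest adjusted p over the alternatives of each was 0.0967 for LOC106998536, LOC106996755 and LOC700575, 0.231 for LOC106998274, 0.19 for LOC695736 and 0.155 for LOC106995929, whose call was lost under 13 of 18 alternatives.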

How the results depend on the processing

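Lower calls outnumbered higher calls against vehicle under every alternative run, and no named locus reversed its direction. At 48 h the 38 higher and 89 lower members became 20 and 154 with upper-quartile scaling, 72 and 154 with DESeq2, 63 and 145 with edgeR's exactTest, and 12 and 20 without both animals over 20 months. Leaving out 1 animal gave 17 to 39 higher and 31 to 105 lower. The higher count moved by over 1.5 times without TP07, TP08, TP09, TP11 or TP12 (24, 18, 17, 24 and 20), and the lower count without TP08, TP09, TP11 or TP12 (31, 35, 54 and 43). At 96 h the 66 higher and 208 lower became 42 and 358 with upper-quartile scaling, 39 and 91 with age as a covariate, and 30 and 49 without both animals over 20 months, and DESeq2 called 108 higher. Leaving out 1 animal gave 30 to 77 higher and 65 to 218 lower. The higher count was 34, 30 and 36 without TP07, TP11 and TP17, and the lower count 65, 128, 65, 136 and 87 without TP07, TP09, TP11, TP15 and TP17. Between 96 h and 48 h the 6 higher became 11 with the stricter filter, 73 with DESeq2, 28 with exactTest, 3 with age and 0 without both older animals, and the 0 lower became 20 with DESeq2, 9 with exactTest and 1 with age. Leaving out 1 animal gave 0 to 9 higher and 0 to 2 lower. The share of counts in vehicle, 2.62%, was 2.81% of annotated counts and 2.1% without the 10 most abundant loci, with 2.55 to 2.66% when 1 animal was left out. At 48 h 2.18% became 1.70% without those 10, with a range of 2.08 to 2.28%. At 96 h 2.38% became 2.53% and 1.79%, with a range of 2.34 to 2.44%. The cause was not tested. Of 90 called results of 60 named loci, 32 kept their call under every alternative.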

Other observations

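Several of the most abundant members shared an order of animals. TP09 was highest in vehicle, TP10 at 48 h, and TP15 and TP17 were the 2 highest at 96 h in 199 of 2440 members (8.16%), 9.20% of protein-coding loci and 9.47% of loci without a name, but in 8 of the 20 most abundant members. H19 was one. LOC707695, near the imprinted gene RTL1, had 167, 363 and 185 CPM in vehicle, 211, 316 and 193 CPM at 48 h and 427, 182, 300 and 176 CPM at 96 h. LOC705677, opposite the potassium channel gene KCNQ1, had 107, 208 and 142 CPM, 109, 219 and 135 CPM, and 264, 150, 255 and 139 CPM. The 8 loci are not independent, as most lie close to another of them. LOC106996788, LOC106996790 and LOC106996791 lie on chromosome 2 between 37717573 and 39087857. LOC707695 and LOC106999572 lie on chromosome 7 between 163157899 and 163337789, and H19 and LOC705677 on chromosome 14 between 1831593 and 2533412. The order was chosen after these values were seen, and no test was made of it.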
